A study of Mus musculus with 16 samples.

Results

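Probes for 5 genes of heme synthesis, red cells and iron balance were followed on 2-colour cDNA arrays of mouse brain and liver: Alas1, Fech, Hba-a1, Slc4a1 and Hamp. The genes were chosen by their log2 ratios in these same brains and livers, seen beforehand, so what follows describes those values and tests none of them. They are read by 11 of the 20794 probes on the array, namely 1 probe for Alas1, 2 for Fech, 6 for Hba-a1, 1 for Slc4a1 and 1 for Hamp. The samples were brain and liver of 4 male C57BL/6J mice, 18 weeks old, that were heterozygous for HdhQ111, a knock-in allele with a lengthened CAG repeat in the mouse huntingtin gene. The comparison sample was pooled RNA of the same tissue from 4 wildtype C57BL/6J males, also 18 weeks old. Both tissues came from the same 4 mutant mice, and every RNA was run on 2 arrays, once in each dye, which makes 16 arrays. The allele is carried by every cell of these mice, and no array of a single wildtype mouse was analysed here.

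Heme, the iron-holding ring of hemoglobin and of many enzymes, is built by a chain of enzymes that begins and ends in the mitochondrion. Alas1 makes the first and rate-limiting intermediate in most tissues, the liver above all, and Fech, ferrochelatase, inserts iron in the last step. Hba-a1 encodes the alpha chain of adult hemoglobin and Slc4a1 encodes band 3, the anion exchanger of the red cell membrane. Both belong to maturing red cells, and red cells in the vessels of an organ carry some of their RNA into its extract. Hamp encodes hepcidin, a liver hormone that lowers iron export into the blood by acting on ferroportin, and its transcription follows iron stores through bone morphogenetic protein (BMP) signals and inflammation through interleukin 6 and STAT3.

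Sequences just upstream of the start site are shown for Hba-a1 and Hamp, whose liver values differed more between mice than those of Alas1. They come from RefSeq on build GRCm38.p6 and read 5′ to 3′ on the gene's strand, ending at the base before the start site. Of the 5 genes, 3 had such an entry (Alas1, Hba-a1 and Hamp), while Fech and Slc4a1 had none. The window of Hba-a1 is chr11:32283422-32283671 on the plus strand. Hamp has chr7:30944030-30944279 and its neighbouring copy Hamp2 has chr7:30924182-30924431, both on the minus strand. Capitals mark matches, on either strand, to the GATA core GATAA, to GGCGCC, the core of the BMP-responsive element, and to the STAT site TTCNNNGAA.
Hba-a1: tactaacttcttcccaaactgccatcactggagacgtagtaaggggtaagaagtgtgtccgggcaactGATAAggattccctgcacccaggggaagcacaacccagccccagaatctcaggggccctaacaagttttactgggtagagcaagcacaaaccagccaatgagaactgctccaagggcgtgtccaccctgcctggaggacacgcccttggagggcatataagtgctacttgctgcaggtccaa
Hamp: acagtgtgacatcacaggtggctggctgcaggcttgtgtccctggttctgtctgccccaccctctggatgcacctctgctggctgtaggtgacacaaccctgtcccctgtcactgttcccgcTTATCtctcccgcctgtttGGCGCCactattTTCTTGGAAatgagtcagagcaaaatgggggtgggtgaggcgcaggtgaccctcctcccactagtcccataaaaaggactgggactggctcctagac
Hamp2: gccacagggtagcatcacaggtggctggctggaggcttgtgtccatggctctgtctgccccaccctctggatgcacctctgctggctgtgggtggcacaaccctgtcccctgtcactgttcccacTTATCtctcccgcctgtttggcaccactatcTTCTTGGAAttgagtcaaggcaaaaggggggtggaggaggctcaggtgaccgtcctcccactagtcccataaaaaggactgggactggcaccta

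The Hba-a1 window holds 1 GATA core, from -182 to -178 counted back from the start site. The Hamp window holds GATAA on the other strand from -128 to -124, GGCGCC from -109 to -104 and a STAT site from -97 to -89. Hamp2 has the GATA and STAT matches but not GGCGCC. Of 32851 upstream windows of 250 bases, 22.6% hold GATAA, 9.59% hold GGCGCC and 7.02% hold TTCNNNGAA. These matches describe letters and do not show that a factor binds. Around their start sites Hba-a1 and its neighbouring copy Hba-a2 were identical over all 297 aligned letters of 300, and Hamp and Hamp2 shared 276 of 297 (92.9%). Neither Hba-a2 nor Hamp2 had a probe, and a cDNA probe can take up RNA of a close copy, so values under Hba-a1 and Hamp may include those copies.

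All values are log2 ratios, most likely HdhQ111/+ over the wildtype pool, and a mouse's value is the mean of its 2 arrays. Ratios do not give a level, so the labelled tissues could not be set against the levels of their defining genes. No header states the sign or the log base. Across the arrays 1496 ratios stood at a floor of 16.492 to 16.987 in size, against at most 8.297 for all others. All 769 such ratios with mutant RNA in Cy5 were positive while all 727 with mutant RNA in Cy3 were negative. Mouse medians over all probes were -0.09 to 0.132 in brain and -0.055 to -0.003 in liver. The interquartile range was widest in liver mouse 1 (0.61) and narrowest in liver mouse 4 (0.246), so a ratio of a given size stands further out in liver mouse 4.

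Gene names sit 11 rows away from their values in the deposited table, and the 6 Hba-a1 probes show it. At an offset of 11 rows, the median Pearson r among the Hba-a1 probes, over 16 arrays where both had values, was 0.93. With the names as given it was 0.04, and over the other offsets tried, of 121 in all, it lay between -0.26 and 0.44. Probes 1 to 5 carry that median and lie in 1 stretch, at value rows 15370 to 15571. Probe 6, at value row 19763, did not follow them, so the offset is not shown for rows outside that stretch. No source states the offset, and every gene name here rests on it.

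**Figure D1:**
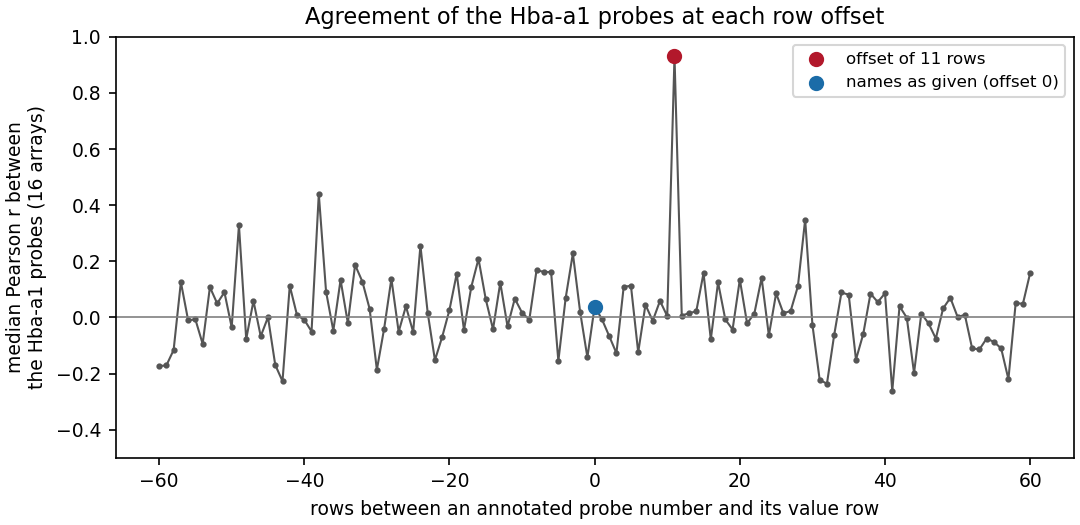
Median Pearson r between pairs of the 6 Hba-a1 probes over 16 arrays, where both have values (y axis), against the number of rows between an annotated probe number and its value row (x axis), for 121 offsets. The point at 11 rows lies at 0.93, the point at 0 rows at 0.04, and no other offset exceeds 0.44.

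Over the whole table, no probe passed an adjusted p of 0.05 in brain (0 of 19325, or 0.0%) or in liver (0 of 20127, or 0.0%) with limma's moderated test against 0. At an unadjusted p under 0.05 there were 677 probes in brain and 1409 in liver. None of the genes below can therefore be said to have changed, and values are given in place of such a call. Of the 11 member probes, 10 had values in at least 3 mice in each tissue. In liver 7 of these 10 were below 0 in every mouse and 0 were above, where 12.7% of all probes were below and 8.43% above. In brain 1 was below 0 in every mouse and 0 above, where the shares were 5.7% and 6.78%. Since these values helped to choose the genes, nothing is read from those counts.

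**Figure D2:**
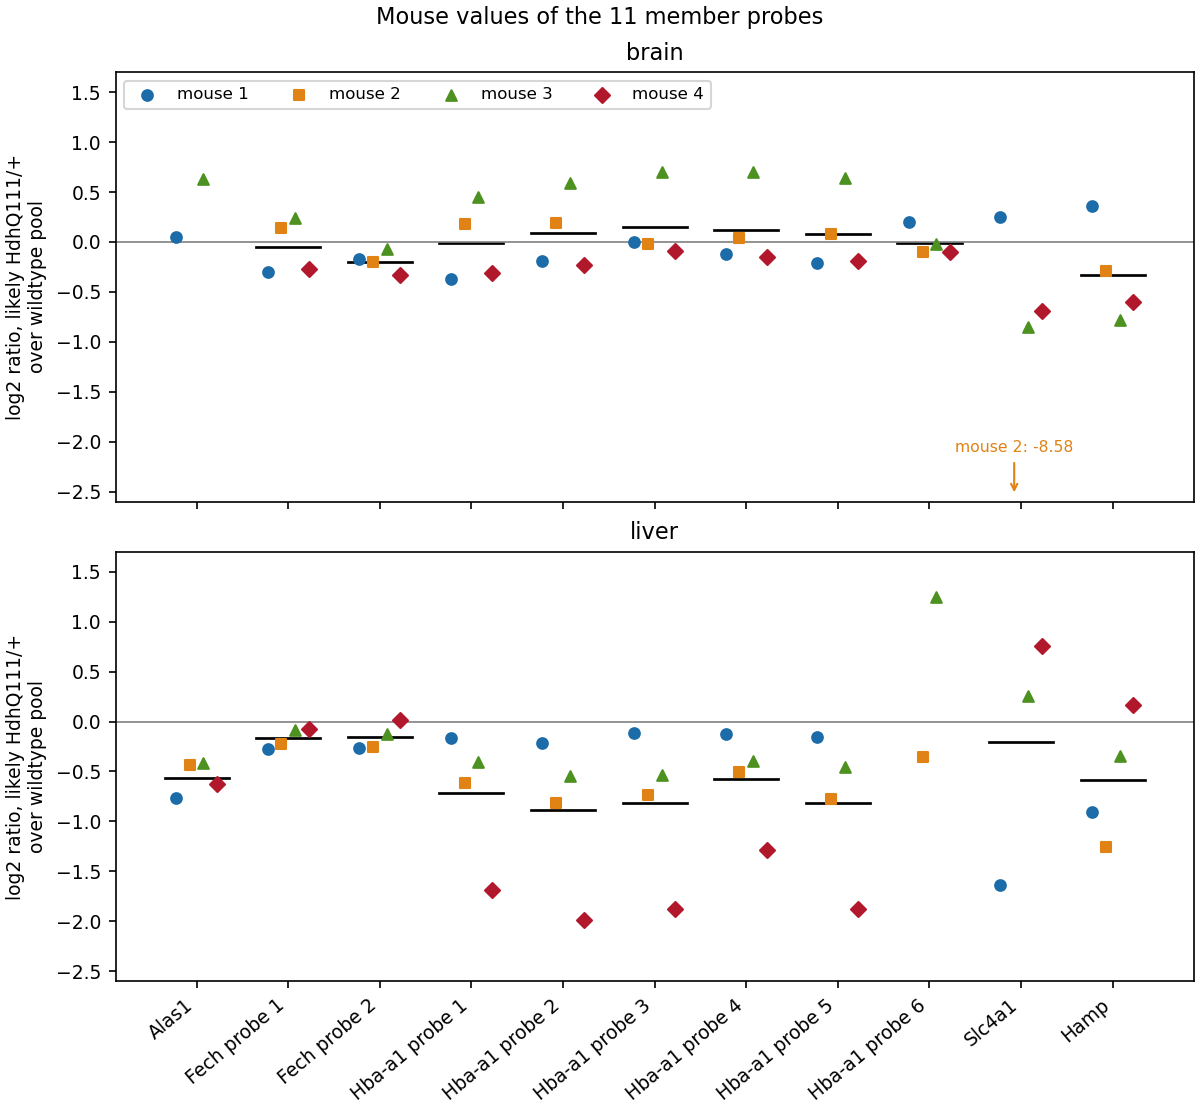
Log2 ratio (y axis, mean of 2 arrays, likely HdhQ111/+ over the wildtype pool) of each of the 11 probes (x axis) for mice 1 to 4, in brain (top) and liver (bottom). Black bars are means of 3 or 4 mice; the bar of Slc4a1 in brain (-2.47) is not drawn, and the arrow marks its mouse 2 at -8.58, outside the axis. Hba-a1 probes 1 to 5 are lowest in liver mouse 4, and Alas1 lies below 0 in all 4 livers.

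Alas1, the entry enzyme of heme synthesis, was below the pool in the liver of every mouse. Its liver log2 ratios were -0.77, -0.44, -0.42 and -0.63 in mice 1 to 4, with a mean of -0.57 ± 0.16 (SD, n = 4). These values helped to choose the gene, so nothing is read from their size, their closeness or their rank. In mouse 4, whose ratios scattered least, 1.6% of probes were as low or lower, against 7.38%, 9.0% and 6.56% in mice 1 to 3. Single arrays varied more than the mouse means, with an SD of 0.43 in Cy5 and 0.62 in Cy3 against 0.16. With mutant RNA in Cy5 they gave -0.21, -1.01, -0.02 and -0.34, and with it in Cy3 -1.33, 0.13, -0.82 and -0.92. Thus 7 of 8 arrays were below 0, and the exception was 1 of the 2 arrays of mouse 2.

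In brain, Alas1 had both arrays in only 2 mice, mouse 1 at 0.05 and mouse 3 at 0.63. Its single brain arrays lay at 0.42 and 1.08 in Cy5 and at -0.33, -0.67, 0.18 and -0.36 in Cy3. They fell on both sides of 0, so no brain direction can be given. In the pair of mice with values in both tissues, liver was lower than brain by log2 differences of -0.82 and -1.06.

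Fech, which closes the pathway by loading iron into the ring, was near the pool in both tissues on both probes. In liver, probe 1 gave -0.28, -0.23, -0.08 and -0.07 (mean -0.17 ± 0.11, n = 4). Liver probe 2 gave -0.27, -0.26, -0.12 and 0.02 (-0.16 ± 0.14, n = 4). The order of the mice was alike on both probes in liver, with mice 1 and 2 lower than mice 3 and 4. In brain, probe 1 gave -0.30, 0.14, 0.24 and -0.27 (-0.05 ± 0.27, n = 4) and lay on both sides of 0. Brain probe 2 gave -0.17, -0.20, -0.07 and -0.33 (-0.20 ± 0.11, n = 4), below 0 in every mouse.

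The Fech values leaned on the dye, except for probe 1 in brain, whose means were -0.06 in Cy5 and -0.03 in Cy3. On arrays with mutant RNA in Cy5 alone, the liver means were 0.05 for probe 1 and 0.25 for probe 2. On arrays with it in Cy3 alone they were -0.38 and -0.57. Brain probe 2 likewise had 0.00, 0.08, 0.41 and 0.05 in Cy5 and -0.35, -0.49, -0.56 and -0.71 in Cy3. The sign of these 3 Fech means therefore turns with the dye, and the pair mean is a small remainder of 2 opposed values.

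The other heme synthesis enzymes on the array showed no common shift. Of 7 further enzymes, 4 had a probe, and 0 of the 4 reached an unadjusted p under 0.05 in either tissue, where 2.88% of liver probes did so upward and 4.12% downward, and 1.62% and 1.88% of brain probes. Their median log2 ratio was 0.04 in liver and -0.20 in brain, beside -0.02 and 0.02 over all probes tested. Alas2, the red cell form of the first enzyme, had liver values of 0.30, 0.46, -0.05 and -0.01 (0.17 ± 0.25, n = 4) and so did not share the sign of Alas1, though its Cy5 mean was -0.08. Alad, the second enzyme, had -0.13 ± 0.06 (n = 4) in liver with all 4 mice below 0, and 0.02 ± 0.11 in brain. Uros and Ppox, which act later in the chain, had liver means of 0.25 ± 0.35 and -0.09 ± 0.24.

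Among genes known to regulate Alas1, 11 of 14 had a probe. In liver 17 of 20 tested probes had a mean below 0, and the median was -0.08, beside -0.02 over all liver probes tested. The share of all probes with a mean below 0 is not given here. Nothing is therefore read from such counts of means, in this list or those below. Of the 20 probes, 2 reached an unadjusted p under 0.05, both lower, where 4.12% of all liver probes were lower and 2.88% higher at that p. Nr1i3, the constitutive androstane receptor that induces Alas1 with drug-metabolising enzymes, had -0.54, -0.24, -0.28 and -0.16 (-0.31 ± 0.17, unadjusted p = 0.0291, adjusted p = 0.636 by limma). Rxra, its dimer partner, had -0.30, -0.24, -0.34 and -0.18 (-0.27 ± 0.07, unadjusted p = 0.0264, adjusted p = 0.636), but its mean was 0.20 on the Cy5 arrays alone. The other probes of these receptors did not repeat this: for Nr1i3 the second gave 0.12, -0.78, 0.43 and 8.46, the last a mean that holds a floor ratio, and for Rxra it gave -0.23, -0.12, -0.12 and 0.05. In brain the median of the list was 0.05. There only Egr1, an early-response factor, reached an unadjusted p under 0.05 (-0.46 ± 0.24, n = 4, unadjusted p = 0.02, adjusted p = 0.998). Of all brain probes 1.88% were lower and 1.62% higher at that p.

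Heme transport and breakdown had 18 of 23 genes on the array. The liver median was -0.10 over 21 tested probes, with 17 means below 0, and the brain median was 0.02. Over all probes tested the medians were -0.02 and 0.02. Hmox1, the enzyme that opens the heme ring, had liver values of 0.45, 0.25, 0.38 and -0.02 (0.27 ± 0.21, unadjusted p = 0.0624) and a brain mean of 0.18 ± 0.21. Tspo, an outer mitochondrial membrane protein that binds porphyrins, had -0.42, -0.26, -0.29 and -0.06 in liver (-0.26 ± 0.15, unadjusted p = 0.047, adjusted p = 0.636). It was the only liver probe of this list at an unadjusted p under 0.05, where 4.12% of all liver probes were lower and 2.88% higher. Hp, haptoglobin, which binds free hemoglobin, had a liver value in only 2 mice, 0.09 in mouse 3 and 1.25 in mouse 4.

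Hba-a1, the alpha chain of adult hemoglobin, differed widely between livers. Probes 1 to 5 gave 1 pattern, with liver mouse 4 far below the others and liver mouse 1 near the pool. Their mean in liver was -0.15, -0.69, -0.47 and -1.75 in mice 1 to 4, that is 0.898, 0.618, 0.722 and 0.297 times the pool. Over mice this was -0.77 ± 0.69 (n = 4), and without mouse 4 it was -0.44 ± 0.27 (n = 3). In brain the same probes averaged -0.18, 0.10, 0.62 and -0.19, or 0.884, 1.07, 1.53 and 0.876 times the pool, with a mean of 0.09 ± 0.38 (n = 4). That brain mean was -0.09 without mouse 3 and -0.04 on the Cy3 arrays alone. Brain mouse 3 was thus the high sample and liver mouse 4 the low one, and the other brains lay within 0.2 of the pool. Brain mouse 3 also had the highest median over all probes (0.132). With each array's median set to 0, the brain values were -0.08, 0.09, 0.49 and -0.22. In bulk tissue, fewer cells of a type and less RNA per cell cannot be told apart.

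Probe by probe the liver values were as follows. Probe 1 gave -0.17, -0.62, -0.41 and -1.69, and probe 2 gave -0.22, -0.82, -0.55 and -1.99. Probe 3 gave -0.11, -0.74, -0.54 and -1.88, and probe 4 gave -0.12, -0.51, -0.40 and -1.29. Probe 5 gave -0.16, -0.78, -0.46 and -1.88. Every probe put the mice in the same order, mouse 4 lowest, then 2, then 3, then 1. In mice 2 to 4, probe 4 was nearest to 0 and probe 2 furthest from it. In liver mouse 4 the 5 probes ranked among the lowest 0.132% to 0.406% of all probes. Since these values helped to choose the gene, nothing is read from that rank.

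In brain, probe 1 gave -0.37, 0.18, 0.45 and -0.31, and probe 2 gave -0.19, 0.19, 0.59 and -0.23. Probe 3 gave 0.00, -0.02, 0.70 and -0.09, and probe 4 gave -0.12, 0.04, 0.70 and -0.15. Probe 5 gave -0.21, 0.08, 0.64 and -0.19. Mouse 3 was highest on all 5. The probes correlated pairwise by 0.86 to 0.98 over the 16 arrays (median 0.95, 10 pairs) and by 0.96 to 1.0 over the 8 mouse values. They share each array and its RNA, so this describes how closely probes of 1 gene repeat each other on the same samples.

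The dye exchange sets a limit on the mildest of these livers. In liver mouse 1, all 5 probes were above 0 with mutant RNA in Cy5 (0.25 to 0.45) and below 0 with it in Cy3 (-0.77 to -0.49). Mice 2, 3 and 4 were below 0 in both orientations on all 5 probes. Liver mouse 4 had -2.18 to -1.56 in Cy5 and -1.95 to -0.90 in Cy3, so both of its arrays gave the low value. In brain mouse 3, both arrays gave the high value, with 0.35 to 0.90 in Cy5 and 0.49 to 0.59 in Cy3. Setting each array's median to 0 left the liver means at -0.12, -0.69, -0.45 and -1.75.

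**Figure D3:**
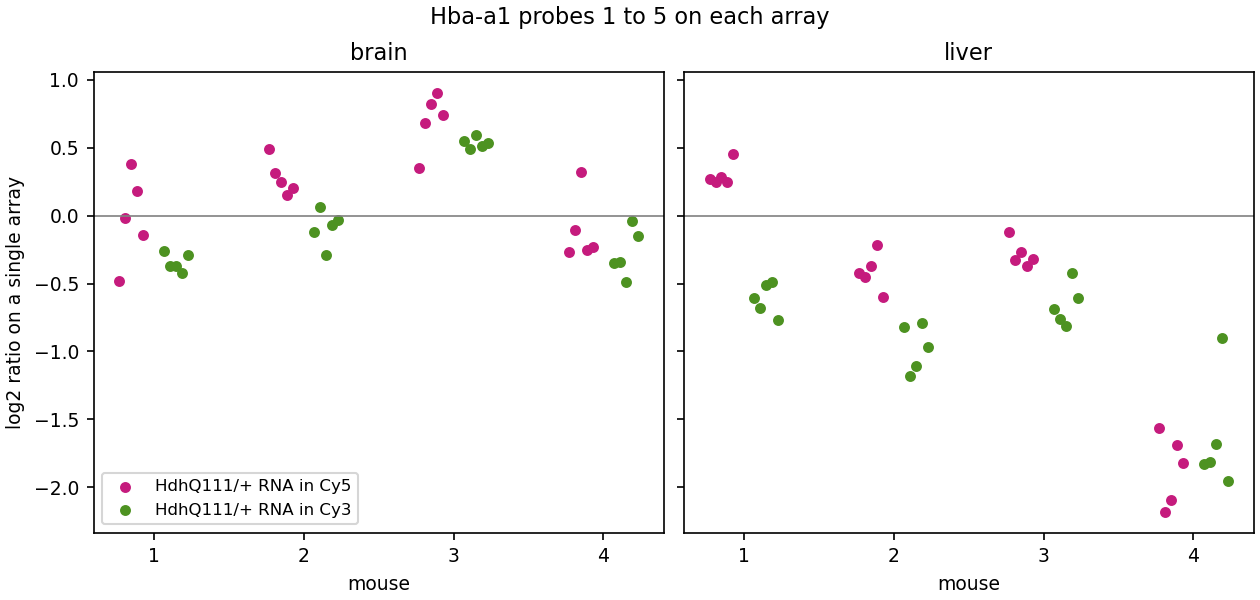
Log2 ratio on each single array (y axis) of Hba-a1 probes 1 to 5 (points, side by side) for mice 1 to 4 (x axis), in brain (left) and liver (right), with mutant RNA in Cy5 (magenta) or Cy3 (green). Liver mouse 4 is low and brain mouse 3 high in both dye orientations, while liver mouse 1 has Cy5 values above 0 and Cy3 values below.

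Hba-a1 probe 6 did not follow the other 5. It gave 0.20, -0.10, -0.02 and -0.10 in brain (-0.01 ± 0.14, n = 4), close to the pool in every mouse. In liver it had both arrays only in mice 2 and 3, at -0.36 and 1.25. Liver mouse 1 had a floor ratio of 16.73 on its Cy5 array and an empty cell on the other. Its r with probes 1 to 5 was 0.19 to 0.27 over the 14 arrays where it had a value, and -0.14 to -0.04 over the 13 without the floor ratio. The 6 probes under this name thus disagree, 5 against 1. Probe 6 lies outside the stretch where the row offset is shown, so whether its row holds Hba-a1 is not known.

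Slc4a1, the red cell anion exchanger, gave scattered values with no shared direction. In liver its log2 ratios were -1.64 in mouse 1, 0.26 in mouse 3 and 0.76 in mouse 4 (-0.21 ± 1.27, n = 3), and mouse 2 lacked an array. The mouse with the lowest Hba-a1 in liver, mouse 4, had the highest Slc4a1. Arrays of 1 liver could differ widely, as in mouse 3 with -1.09 in Cy5 and 1.60 in Cy3. In brain the values were 0.25, -8.58, -0.85 and -0.69, and the second is the mean of -0.62 and a floor ratio of -16.54. Without that mouse the brain mean was -0.43 ± 0.60 (n = 3), against -2.47 ± 4.10 with it.

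Other red cell genes did not show the low value of liver mouse 4. Of 34 further genes of hemoglobin and the red cell, 17 had a probe, and no other adult globin gene was among them. Their 26 probes lay between -0.39 and 0.42 in liver mouse 4, and 0 were at or below -1, where 135 of 20424 probes were (0.661%). Their median by mouse in liver was -0.09, 0.03, 0.02 and 0.02, and over 25 tested probes the list's median was 0.04, with 0 probes at an unadjusted p under 0.05. Over the arrays, their r with the mean of Hba-a1 probes 1 to 5 ran from -0.43 to 0.47 with a median of -0.01. Alas2 and Hemgn, which belong to red cell precursors, were at -0.01 and 0.07 in liver mouse 4. Hba-x, the embryonic alpha-like globin, was at -0.17 there.

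**Figure D4:**
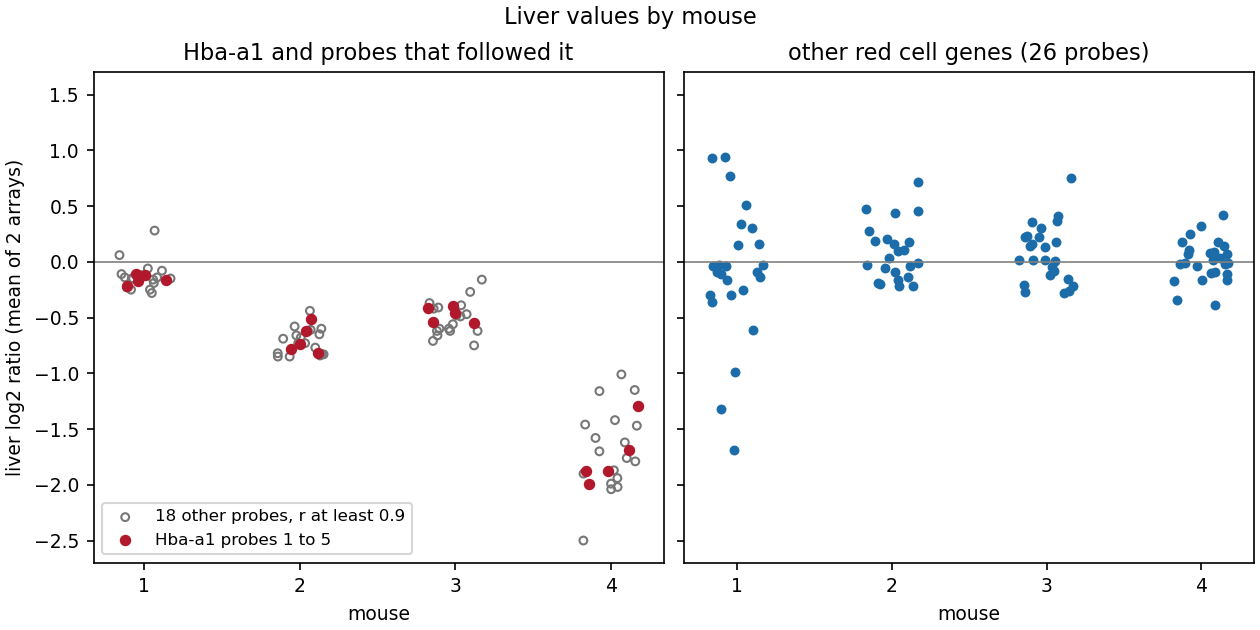
Liver log2 ratio (y axis, mean of 2 arrays) by mouse (x axis, points spread sideways only to be seen). Left, Hba-a1 probes 1 to 5 (red) and the 18 probes whose r with them was at least 0.9 (grey circles); right, 26 probes of other red cell genes (blue), with 1 value above the axis left out. In mouse 4 the left panel lies between -2.5 and -1.01 and the right panel between -0.39 and 0.42. The grey probes were picked by that r, so their low values in mouse 4 follow largely from the choice.

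In brain the same red cell list had a median of -0.11 over 26 probes, with 16 means below 0. In every mouse with a value, 6 probes were below 0 and 2 above, where 5.7% and 6.78% of all brain probes were. Car1, the red cell carbonic anhydrase, had -0.67, -1.04 and -0.69 in the 3 brains measured (-0.80 ± 0.21, unadjusted p = 0.00637, adjusted p = 0.998). Mouse 3, with the highest Hba-a1 in brain, had the lowest Car1 there. Hemgn had -0.28 ± 0.20 in brain and -0.05 ± 0.15 in liver. Car1 was the only brain probe of this list at an unadjusted p under 0.05, where 1.88% of all brain probes were lower and 1.62% higher.

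Among transcription factors and receptors of red cell formation, 11 of 14 genes had a probe, and Epor, Kit and Epo had none. The list's median was 0.03 in liver and 0.13 in brain. In liver 2 of 14 probes reached an unadjusted p under 0.05, both higher, where 2.88% of all liver probes did so upward and 4.12% downward. Stat5b, which carries cytokine and growth hormone signals, had 0.25, 0.56, 0.24 and 0.27 (0.33 ± 0.16, unadjusted p = 0.02, adjusted p = 0.636), with a mean of -0.04 on the Cy3 arrays alone. Nfe2, a globin gene activator, had 1.28, 0.39, 0.23 and 0.20 (0.53 ± 0.51, unadjusted p = 0.0476, adjusted p = 0.636), so that mouse 1 made most of its mean. Gata1, the GATA factor of red cell precursors, had 0.08 ± 0.24 in liver and 0.26 ± 0.30 in brain.

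Markers of other blood and vessel cells were read beside Hba-a1 in the same samples. White blood cell markers (9 of 12 genes, 14 probes) had liver medians of 0.16, 0.07, -0.02 and 0.09 in mice 1 to 4, and platelet markers (4 of 6 genes) had 0.10, 0.03, -0.09 and 0.02. Neither median was low in liver mouse 4. In liver 1 of 14 white blood cell probes reached an unadjusted p under 0.05, where 2.88% of all liver probes did so upward and 4.12% downward. It was S100a8, a neutrophil calcium-binding protein, at 2.43, 0.64, 0.17 and 0.89 (1.03 ± 0.98, unadjusted p = 0.0361, adjusted p = 0.636), with a Cy5 mean of -1.02. Markers of Kupffer cells and iron-recycling macrophages (3 of 8 genes) had 0.18, -0.06, -0.40 and -0.10, and hepatocyte markers (4 of 7 genes) -0.14, -0.22, -0.16 and -0.01. In brain the white blood cell median was 0.20 over 13 tested probes, with Ptprc, the common leukocyte antigen, at 0.61 ± 0.26 (unadjusted p = 0.00806) and Camp at 0.55 ± 0.38 (unadjusted p = 0.0268), both with an adjusted p of 0.998, and the Cy3 mean of that Ptprc probe was -0.09. At an unadjusted p under 0.05, 1.62% of all brain probes were higher and 1.88% lower. The other Ptprc probe averaged -0.31 in brain, at 1.31, -2.36, 0.11 and -0.28, and the other Camp probe 0.32. Endothelial markers (6 of 6 genes) had liver medians of 0.22, -0.19, -0.16 and 0.0 and brain medians of 0.07, -0.07, 0.16 and 0.13. Among them the vascular growth factor receptor Kdr had -0.24 ± 0.13 in liver (unadjusted p = 0.0499, adjusted p = 0.636). Its relative Flt1 had 0.31 ± 0.08 in brain on 1 probe (unadjusted p = 0.0346, adjusted p = 0.998) and -0.07 on the other. The white blood cell medians by mouse in brain were 0.20, 0.30, 0.11 and -0.04, and mouse 3, highest for Hba-a1, was not the highest of these. How much blood each organ held was not measured, and its part in the Hba-a1 values was not tested.

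Hamp, the gene of hepcidin, was below the pool in 3 of 4 livers. Its liver log2 ratios were -0.91, -1.26, -0.35 and 0.17 in mice 1 to 4 (-0.59 ± 0.63, n = 4). The spread between mice was as large as the mean, and mouse 4 lay on the other side of 0. Without mouse 2 the mean was -0.36, and without mouse 4 it was -0.84. Mouse 2 had -0.87 in Cy5 and -1.65 in Cy3, and mouse 1 had -0.48 and -1.33, so both arrays of these mice were below 0. Mouse 3 had -0.11 and -0.58. Mouse 4 had 0.32 and 0.01, so no liver had arrays on opposite sides of 0. Mice 1 and 2, lowest for Hamp, were not the lowest for Hba-a1, and mouse 4, lowest for Hba-a1, was highest for Hamp.

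In brain, where Hamp is known to be scarce, the ratios were 0.36, -0.29, -0.78 and -0.60 (-0.33 ± 0.50, n = 4). Arrays of the same mouse disagreed here, as in mouse 4 with 0.72 in Cy5 and -1.92 in Cy3. Liver minus brain was -1.26, -0.97, 0.43 and 0.77, with both signs. The gap between tissues thus differed in direction between mice 1 and 2 on one side and 3 and 4 on the other.

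Genes that regulate hepcidin had 24 of 32 on the array. In liver the median of 31 probes was -0.07, with 19 means below 0, and in brain it was 0.05 over 27 probes. Over all probes tested the medians were -0.02 in liver and 0.02 in brain. Hjv, the BMP co-receptor of liver, followed Hamp in sign in every liver, with -0.48, -0.47, -0.28 and 0.09 (-0.29 ± 0.27, unadjusted p = 0.0743), though its mean was 0.01 on the Cy5 arrays alone. Bmp6, the ligand that reports iron stores, had -1.45, 0.17, -0.23 and 0.07 (-0.36 ± 0.74). Id1, a BMP target induced along with hepcidin, had -0.29, -0.14, 0.08 and 0.07 (-0.07 ± 0.18). Hfe had 0.35, 0.42 and -1.16 in the 3 livers measured. The BMP arm thus held no gene at an unadjusted p under 0.05 among those named here.

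Of the hepcidin list in liver, 3 of 31 probes reached an unadjusted p under 0.05, 2 lower and 1 higher, where 4.12% of all liver probes were lower and 2.88% higher. Each had an adjusted p of 0.636. Creb3l3, a liver stress factor that can act on the hepcidin promoter, had -0.46, -0.46, -0.16 and -0.33 (-0.35 ± 0.14, unadjusted p = 0.014). Il6st, the shared receptor chain for interleukin 6, had -0.02, -0.65, -0.50 and -0.75 (-0.48 ± 0.32, unadjusted p = 0.0191) on 1 probe, while its other probe averaged -0.10. Erfe, the red cell hormone that lowers hepcidin, had 0.58, 0.20 and 0.41 in mice 2 to 4 (0.40 ± 0.19, unadjusted p = 0.033). The sign of these 3 means was the same on both dye orientations. In brain 0 probes of the list reached an unadjusted p under 0.05.

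Acute phase proteins, which move with hepcidin in inflammation, had 15 of 19 genes on the array. The liver median was -0.13 over 16 probes, with 0 at an unadjusted p under 0.05. Saa1, serum amyloid A, had -2.42, 3.40, -1.85 and -0.90 (-0.44 ± 2.64). Mouse 2, the lowest for Hamp, was thus the only liver above the pool for Saa1. In brain, Lbp, which binds bacterial lipopolysaccharide, had -0.37 ± 0.20 (unadjusted p = 0.0363, adjusted p = 0.998), with a mean of 0.07 on the Cy3 arrays alone. It was the only brain probe of this list at an unadjusted p under 0.05, where 1.88% of all brain probes were lower and 1.62% higher.

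Genes of iron uptake, storage and export had 16 of 29 on the array, without transferrin, its receptors or ferroportin. In liver the median of 25 probes was -0.08, with 18 means below 0, beside a median of -0.02 over all liver probes tested. At an unadjusted p under 0.05, 3 probes were lower and 1 higher, where the shares over all liver probes were 4.12% and 2.88%. Ncoa4, which delivers ferritin to lysosomes, had -0.50, -0.54, -0.31 and -0.17 (-0.38 ± 0.17, unadjusted p = 0.0129). Pcbp1, an iron chaperone, had -0.33, -0.35, -0.23 and -0.19 (-0.28 ± 0.08, unadjusted p = 0.0235), and Meltf, a transferrin-like membrane protein, had -0.31, -0.36, -0.39 and -0.16 (-0.30 ± 0.10, unadjusted p = 0.0185). The means of Pcbp1 and Meltf turned above 0 on the Cy5 arrays alone (0.09 and 0.16), and that of Ncoa4 did not (-0.19). Lcn2, a siderophore-binding protein of inflammation, had 1.65, 0.49, 0.76 and -0.01 (0.72 ± 0.70, unadjusted p = 0.0416), and was -0.07 on the Cy3 arrays. Other probes did not repeat these values, since the second Ncoa4 probe averaged -0.06 and the second Lcn2 probe 0.00 in liver. The 4 probes first named had an adjusted p of 0.636 each.

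The ferritin chains were read by 5 probes. The 4 probes of Fth1, the ferritin heavy chain, had liver means of -0.13, -0.13, -0.20 and -0.08 and brain means of 0.00, 0.09, 0.12 and 0.06, and all 4 liver means were above 0 on the Cy5 arrays alone, while all 4 brain means were below 0 on the Cy3 arrays alone. Ftl1, the light chain, had -0.36, -1.23, -0.03 and 0.15 in liver (-0.37 ± 0.61) and -0.18 ± 0.10 in brain, with Cy5 means of 0.07 and 0.11. In liver Ftl1 was lowest in mouse 2 and above the pool only in mouse 4, as Hamp was. This was not particular to Ftl1. It also held for most Fth1 probes and for the liver medians of the whole iron list, -0.23, -0.24, -0.04 and 0.02 in mice 1 to 4. In brain, 1 probe of the iron list reached an unadjusted p under 0.05, where 1.62% of all brain probes were higher and 1.88% lower. It was Slc11a2, the iron importer DMT1, at 0.34, 1.24 and 0.64 in the 3 brains measured (0.74 ± 0.46, unadjusted p = 0.0296, adjusted p = 0.998). The 2 other Slc11a2 probes averaged -0.19 and -0.20 in brain, so the probes of this gene disagree.

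Iron-sulfur cluster assembly, the other large use of mitochondrial iron beside the Fech step, had 14 of 21 genes on the array. In liver 17 of 20 probes had a mean below 0, a count for which no share over all probes is given. Below 0 in every mouse were 6, where 12.7% of all liver probes were. Their median was -0.09, against -0.02 over all probes. Glrx5, a cluster carrier also needed for heme synthesis, had -0.39, -0.48, -0.23 and -0.21 (-0.33 ± 0.13, unadjusted p = 0.0169), and Lyrm4, a partner of the sulfur donor, had -0.28, -0.44, -0.22 and -0.14 (-0.27 ± 0.13, unadjusted p = 0.0345). They were the 2 of 20 liver probes at an unadjusted p under 0.05, where 4.12% of all liver probes were lower and 2.88% higher. Both had an adjusted p of 0.636. The mean of Lyrm4 was 0.18 on the Cy5 arrays alone, while its other probe averaged -0.18. In brain the list had a median of 0.04 and 0 probes at an unadjusted p under 0.05.

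**Figure D5:**
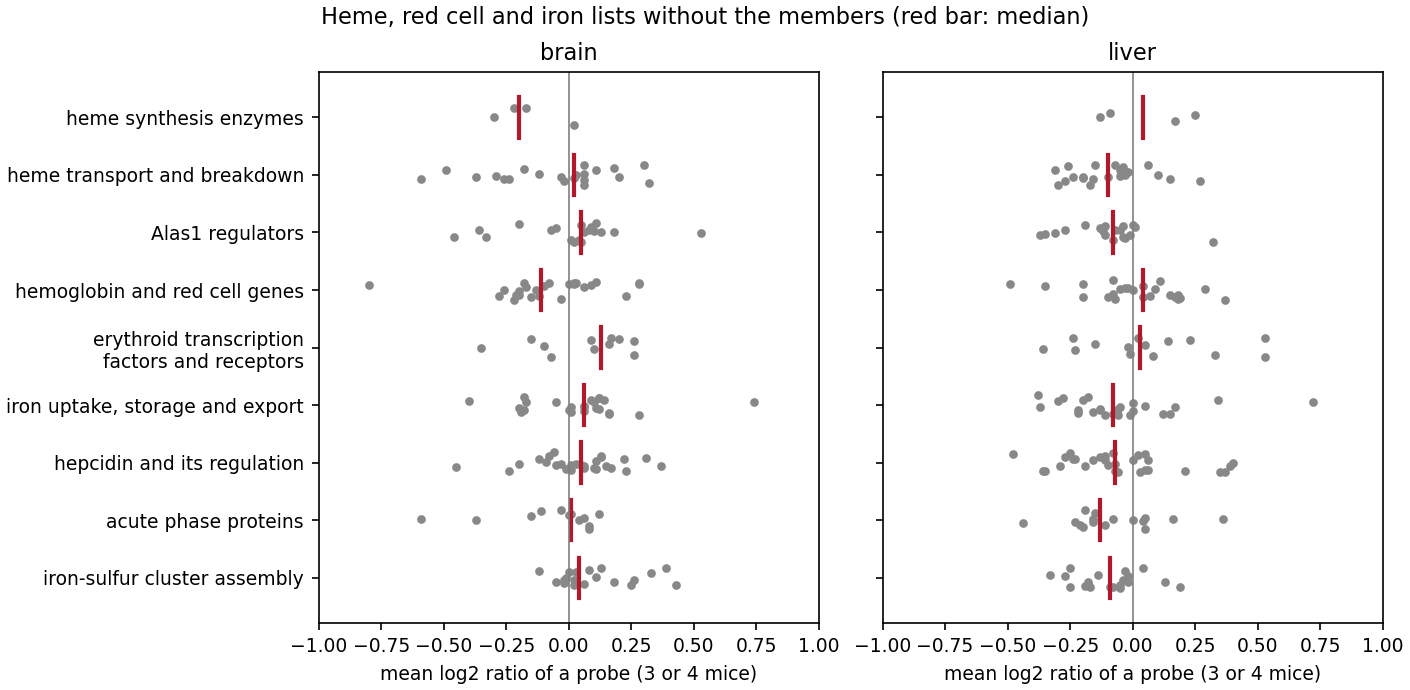
Mean log2 ratio of each tested probe (x axis, grey points, 3 or 4 mice) in 9 lists of heme, red cell and iron genes without the members (y axis), in brain (left) and liver (right), with the list's median as a red bar. Medians run from -0.20 to 0.13 in brain and from -0.13 to 0.04 in liver, and 3 probes in each tissue lie outside the axis.

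Liver and brain of the same mouse could be set side by side for each gene. For Hba-a1 probes 1 to 5, liver minus brain was near 0 in mouse 1, between -0.11 and 0.20. It was -1.0 to -0.55 in mouse 2, -1.24 to -0.86 in mouse 3 and -1.80 to -1.15 in mouse 4. Liver was thus below brain on every one of these probes in mice 2 to 4. For Fech, liver minus brain averaged -0.12 ± 0.27 on probe 1 and 0.04 ± 0.21 on probe 2, and for Slc4a1 it was -1.89, 1.11 and 1.45 in mice 1, 3 and 4. Among Hba-a1 probes 1 to 5, Fech and Hamp, no probe had all 4 mice on opposite sides of 0 in brain and liver. Of all probes with all 8 values, 1.42% did. Alas1, Slc4a1 and the remaining Hba-a1 probe lacked some of the 8 values, so the count could not include them. Over all probes, 1 of 19055 (0.00525%) passed an adjusted p of 0.05 for liver minus brain, the pituitary hormone gene Prl, and no gene of these lists did. With the mouse as a block for the paired tissues, 1 probe passed as well, but for another pituitary gene, Pomc.

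Genes with the most similar pattern were named by Pearson r over the 8 mouse values, among 9679 named probes with complete values. For Fech probe 1 they were Rgs7bp (0.986), Cyb5r1 (0.98) and Fndc3a (0.977), and for Fech probe 2 Zbtb46 (0.917), Mxd1 (0.911) and Pitpna (0.911). The 2 Fech probes thus had different genes beside them. For Hamp they were Zc3h12a (0.902), Tbxas1 (0.901) and Usp16 (0.898). Alas1, Slc4a1 and Hba-a1 probe 6 lacked complete values and were not ranked. For Hba-a1 probes 1 to 5, the 3 nearest always came from Mark3, Cmtr1, Ucma, Nup155 and Atg12, with r from 0.968 to 0.997. The 8 values share the arrays and the pool, and the highest r of so many is high by selection.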

How the data were processed

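Per the labels' protocols, cDNA made from total RNA took up Cy3 or Cy5 by indirect labelling. The authors deposited 1 normalized log2 ratio per probe and array; base 2 was assumed, and scanner, background correction, normalization and spot filters are not given in the sources used here. Arrays had 19530 to 20584 values. Without intensities, signal over background is unknown, and precision is limited by how many mice there are and by the use of 1 pool.

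The platform annotation named 12771 probes once and left 8023 unnamed. At the offset of 11 rows, 12760 rows had a name. A mouse's value averaged its arrays of opposite dye, both of which were required, and ratios over 10 in size were marked as floor. The two-sided test of mouse means against 0 used limma 3.58.1 (lmFit and eBayes in R 4.3.3, Benjamini-Hochberg over the whole table) where at least 3 mice had values. The pool is 1 control sample, so the spread among wildtype mice is left out. Simulated data held 50 log2 changes each of 0.5, 1, 2 and 4 together. Their spreads came from probes with all 4 mice, with floor ratios left out. For liver (18155 probes), 8% of changes of 0.5 and 66% of changes of 1 were recovered, with 9 false calls. For brain (16384 probes) these shares were 2% and 44%, with 4 false calls. The main test had other settings, so the shares do not give its power. Numbered arrays of both tissues come from the same mouse, per the mouse identifiers in the labels, so the mouse pairs them. The liver minus brain test was limma on the 8 mouse means without a mouse term. It thus left the pairing out, and the mouse as a block was run as an alternative. Spearman's rho of a brain with its own liver was -0.004 to 0.103 and with other livers on average -0.031 to 0.009.

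The members and lists were chosen with earlier results of these data known. Every probe of the members is given. From each list and tissue, genes with an unadjusted p under 0.05 were named, at most 4, along with a set list of defining genes. Uros, Ppox, Gata1, Hemgn, Hba-x and second probes of named genes were given besides, after their values were seen. Sequences came from RefSeq (GRCm38.p6) and were compared with Biopython 1.88. Alternatives covered floor ratios, centring, scaling, single dyes, missing arrays, the row offset, left-out mice and the mouse as a block.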

Additional observations from a re-analysis of the deposited data

Results flagged for a closer look

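Among 61 sets of 4 mouse values for named probes, 4 had 1 mouse far from the other 3 by Dixon's criterion. The criterion marks about 1 in 20 of independent, normal sets. The sets here include member probes chosen by their values and probes that repeat each other, so nothing is read from the count. Hba-a1 probe 3 had 0.70 in brain mouse 3, with the other brains at -0.09 to 0.00. Slc4a1 had -8.58 in brain mouse 2, which holds a floor ratio, with the others at -0.85 to 0.25. Stat5b had 0.56 in liver mouse 2, with the others at 0.24 to 0.27. Fth1, on 1 of its probes, had -0.14 in brain mouse 1, with the others at 0.04 to 0.06.

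Of 140 probes of these genes and lists with all 8 values, 3 had all 4 mice on one side of 0 in brain and on the other in liver, where 1.42% of all such probes did. Add2, a red cell and neuronal membrane skeleton protein, had -0.15 ± 0.09 in brain and 0.18 ± 0.07 in liver, a difference of 0.33 (unadjusted p = 0.0292). Meltf had 0.12 ± 0.06 and -0.30 ± 0.10, a difference of -0.43 (unadjusted p = 0.00854). Glrx5 had 0.25 ± 0.12 and -0.33 ± 0.13, a difference of -0.57 (unadjusted p = 0.00279). The adjusted p of each difference in limma was 0.739 without a mouse term and 0.762 with the mouse as a block.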

How the results depend on the processing

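The count of liver probes past an adjusted p of 0.05 was 0 under every alternative run. In brain it was 0, but 1 where 1 array per mouse was enough, 2 on the Cy5 arrays alone, and 0 to 1 with a mouse left out (1, Gh, without mouse 2). For liver minus brain it was 1 (Prl), but 2 with floor ratios missing (Pomc and Prl), 0 with all 4 mice required, 0 with a trended and robust eBayes, and 0 to 1 with a mouse left out (0 without mouse 3 or mouse 4; Pomc in place of Prl without mouse 2). With the replicate block for the paired tissues of a mouse it was 1 (Pomc). The cause was not tested. Gh, Prl and Pomc belong to none of the heme, red cell or iron lists.

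Member means moved by less than the spread between mice in 24 of 24 cases with arrays centred, and in 24 of 24 with scaling as well, where 1 changed sign (Slc4a1 in liver, 0.15). On the Cy5 arrays alone 7 of 24 member means moved and on the Cy3 arrays alone 6 of 24, with 5 changing sign on each. With names as given, 6 of 23 moved and 12 changed sign. Leaving out a mouse moved 0 of 24 beyond the spread, and changed the sign of 3, 1, 6 and 3 without mice 1 to 4. With 1 array enough, Alas1 in brain was -0.09 and Hba-a1 probe 6 in liver 4.58. The mean of Hba-a1 probes 1 to 5 was formed after the values were seen.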

Other observations

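Among 15077 probes with values on all 16 arrays, 18 others had an r of at least 0.9 with the mean of Hba-a1 probes 1 to 5. Of these 8 were named, Mark3 (0.98), Ucma (0.96), Cmtr1 (0.95), Nup155 (0.94), Atg12 (0.94), Tap1 (0.93), Cdca8 (0.92) and H3f3a (0.91), and 10 had no name. All 18 were lowest in liver mouse 4 among the livers, between -2.5 and -1.01, and 17 were highest in brain mouse 3 among the brains. These samples are the extremes of the Hba-a1 mean, so both counts follow largely from the choice by r and nothing is read from them. Their values in liver mouse 1 ran from -0.28 to 0.28. The named genes are not genes of hemoglobin or of the red cell membrane.

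Other probes of the same genes did not share the pattern. The other Mark3 probe had an r of 0.56 and -0.02 in liver mouse 4, where the first had -1.99. The 4 other Cmtr1 probes had r of -0.38 to 0.42, and the 2 other Atg12 probes -0.16 and 0.40. In the table, 10 of the 18 lay within 100 rows of an Hba-a1 probe among 1 to 5, out of 306 complete probes there (3.27%), and 8 lay among the 14766 elsewhere. The median r with Hba-a1 was 0.0 in that stretch and 0.06 over all probes. What these cDNA clones hold was not tested.

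Tap1, a peptide transporter of antigen presentation, had -0.19, -0.68, -0.41 and -1.15 in liver (-0.61 ± 0.41, n = 4), in the same order of mice as Hba-a1. Fdps, an enzyme of cholesterol synthesis, had -0.30, -0.88, -0.39 and -1.05 (-0.66 ± 0.37, n = 4), with an r of 0.88. These genes were picked out after their values were seen.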
